A study of Mus musculus with 2 samples.

Results

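The genes described here encode the subunits of the respiratory chain and the ATP synthase, from both the nuclear and the mitochondrial genome. They were taken by symbol from the 32285 genes of the deposited tables, by the name stems Ndufa, Ndufb, Ndufc, Ndufs, Ndufv, Uqcr, Atp5, mt-Nd, mt-Co, mt-Cytb and mt-Atp, by Cox followed by a number from 4 to 8, and by the names Sdha, Sdhb, Sdhc and Sdhd. Of 107 matching symbols, Ndufb1-ps was left out for its -ps suffix, and Cox8c because it had 0 UMIs in both sections, leaving 105 genes. Of these, 13 are encoded by mitochondrial DNA, 82 are nuclear genes for subunits, and 10 are nuclear genes that match the stems but are not counted as subunits here. Those 10 are 8 complex I assembly factors, Cox7a2l, which helps to join complexes into supercomplexes, and Ndufa4l2, a paralogue of Ndufa4.

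RNA was measured with Visium, in which a tissue section lies on an array of barcoded spots that each cover several cells and capture the 3′ ends of transcripts. Both mice were C57BL/6, had the left anterior descending artery ligated at postnatal day 2, and gave a heart 7 days later, so no uninjured heart was compared here. Sections were 10 µm thick and taken 200 µm below the suture, 1 per genotype, and are called PD1 Het (heterozygous for PD1) and PD1 KO (lacking PD1) here. PD-1 is an inhibitory receptor of activated T cells, and the comparison asks how the infarcted neonatal heart differs when it is lost. Its gene Pdcd1 had 0 UMIs in both sections, which allows up to 0.234 CPM (UMIs scaled to the section's total) in PD1 Het and 0.128 CPM in PD1 KO. It therefore does not check the genotype labels. Sex, litter and cell type of the deletion are not given in the labels, and animal, section, depth and genotype cannot be told apart.

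The respiratory chain sits in the inner mitochondrial membrane. Complex I (NADH dehydrogenase) and complex II (succinate dehydrogenase) pass electrons to ubiquinone, complex III passes them to cytochrome c, and complex IV (cytochrome c oxidase) passes them to oxygen. Complexes I, III and IV pump protons, and complex V (ATP synthase) uses the proton gradient to make ATP. Complex II is built from nuclear genes alone, whereas the other complexes combine nuclear subunits with a few encoded in mitochondrial DNA. The heart is among the tissues richest in mitochondria, and its muscle cells shift from glycolysis to oxidative metabolism after birth.

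The PD1 Het section kept 811 of 812 spots with at least 500 UMIs and 12814494 UMIs, and the PD1 KO section kept 851 of 859 spots and 23520499 UMIs. The median spot held 15475 UMIs in PD1 Het and 27134 in PD1 KO. All 12 ventricular cardiomyocyte markers were detected, at 81048 CPM together in PD1 Het and 80679 CPM in PD1 KO, and 225 spot barcodes occurred in both sections. No test was possible with 1 section per group. All intervals are 95% intervals that cover counting error only, and UMIs are counted as deposited, without regard to transcript length. The relative log2 ratio is the log2 CPM ratio of PD1 KO over PD1 Het minus 0.33, the value of the median gene among the 11455 genes that reached 100 UMIs over the 2 sections. In such summed spots, fewer cells of a type and less RNA per cell cannot be told apart.

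Transcripts of the 2 genomes differed in opposite directions as shares of all UMIs. The mt-encoded genes made up 25.6% of UMIs in PD1 Het and 15.9% in PD1 KO, while the nuclear subunits made up 9.75% and 10.5%. The nuclear direction depends on the total used. By CPM on UMIs outside mt-encoded genes, the median log2 ratio of the nuclear subunits was -0.027. For each UMI of a nuclear subunit there were 2.63 UMIs of mt-encoded genes in PD1 Het and 1.51 in PD1 KO, a 1.74-fold difference that does not depend on the total used for scaling. Together the mt-encoded and nuclear subunits took 35.4% of all UMIs in PD1 Het and 26.3% in PD1 KO.

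The 13 mt-encoded genes had a median relative log2 ratio of -1.06, with a range from -1.22 to -0.53. All 13 were lower in PD1 KO by CPM too, with a median log2 CPM ratio of -0.73, whereas 1671 of 11452 genes tested with UMIs in both sections were. Relative to the median gene, 12 of 13 lay at least 1.5-fold lower, against 3.3% of all genes tested. Among the 1068 genes with at least 100 CPM in both sections, a closer match for such abundant transcripts, 5.62% lay that far below and 0.843% that far above.

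The catalytic core of complex IV is mt-encoded. mt-Co1, its largest subunit with the site where oxygen is reduced (mitochondrial DNA 5328 to 6872, plus strand, GRCm38), stood at 72691 CPM in PD1 Het and 40967 CPM in PD1 KO. Its relative log2 ratio was -1.16 (-1.16 to -1.15). mt-Co2, which takes electrons from cytochrome c, had 21950 and 13965 CPM, and its relative ratio was -0.98. The third core subunit, mt-Co3, was lower in PD1 KO as well, with 50669 and 30508 CPM and a relative ratio of -1.06.

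In complex I, whose membrane arm is built on 7 mt-encoded proteins, the relative ratios ran from -1.22 to -0.87. mt-Nd4, one of the proton-pumping subunits, had 18675 CPM in PD1 Het and 11397 CPM in PD1 KO. mt-Nd1, which lies near the ubiquinone site, had 14265 and 8477 CPM. mt-Nd2, a further pumping subunit (3914 to 4951, plus strand), differed least of the 7, with 11615 and 7974 CPM and a relative ratio of -0.87. The lowest ratio belonged to mt-Nd6, the only subunit gene read from the other strand of mitochondrial DNA (13552 to 14070, minus strand). It had 399 UMIs in PD1 Het and 396 in PD1 KO, and a relative ratio of -1.22 with a wide interval (-1.42 to -1.01). mt-Nd5, mt-Nd3 and mt-Nd4l lay at -1.11, -1.08 and -1.08.

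mt-Cytb, the only mt-encoded subunit of complex III (14145 to 15288, plus strand), had 31121 CPM in PD1 Het and 20828 CPM in PD1 KO. Its relative ratio was -0.91 (-0.92 to -0.90). The membrane subunit of the ATP synthase through which protons pass, mt-Atp6 (7927 to 8607, plus strand), had 26426 and 19060 CPM, and its relative ratio of -0.80 was among the smallest differences. mt-Atp8, which is read from the same message as mt-Atp6 and overlaps it (7766 to 7969), lay at -0.53 (-0.64 to -0.41) with 981 and 1574 UMIs. Reads in that overlap, and in the overlap of mt-Nd4l with mt-Nd4, could be split between the genes, so their values are uncertain.

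The mt-encoded genes therefore did not all differ to the same degree, and their mix shifted a little. mt-Co1 took 28.4% of mt-encoded UMIs in PD1 Het and 25.8% in PD1 KO, whereas mt-Atp6 took 10.3% and 12.0% and mt-Cytb 12.1% and 13.1%. For mt-Co1, mt-Co2, mt-Co3, mt-Atp6, mt-Nd4l and mt-Nd3, at least 50% of the 31-base words in the last 400 bases recur in another annotated gene, so their counts are uncertain.

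**Figure D1:**
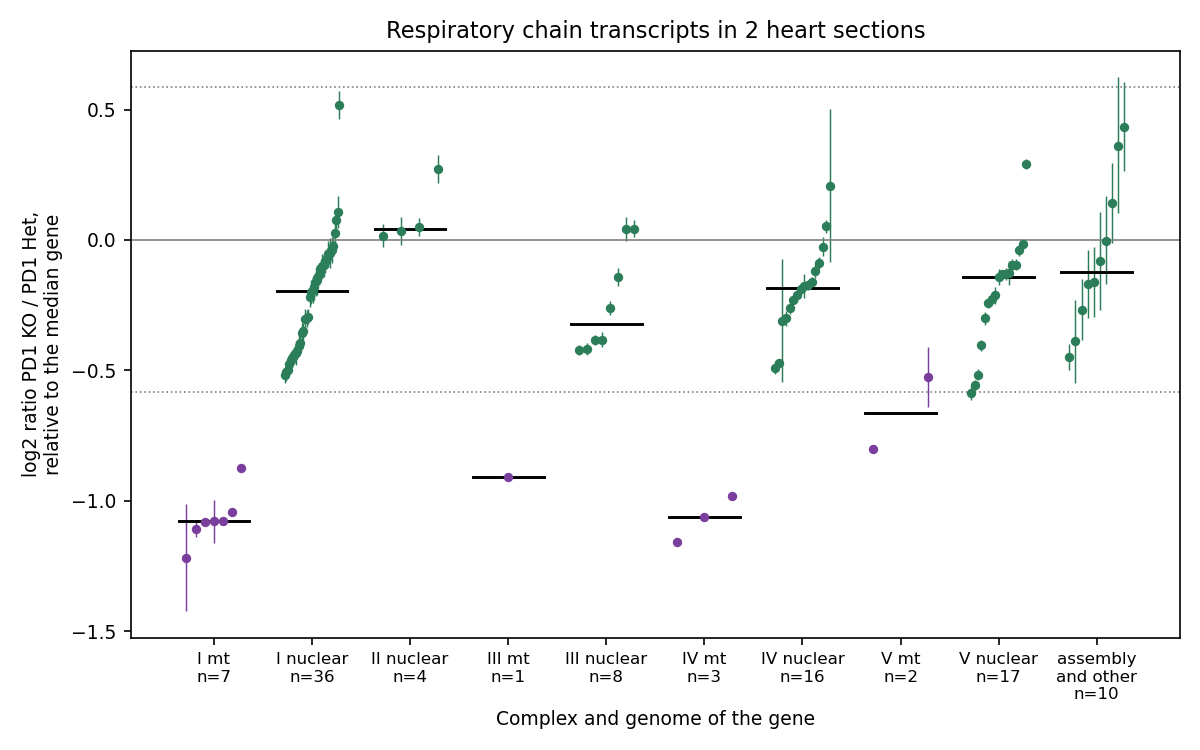
Relative log2 ratio of PD1 KO over PD1 Het (y axis) for each gene that reached 100 UMIs over the 2 sections, by complex and genome (x axis). Points are genes, purple for mt-encoded and green for nuclear, thin bars are 95% counting intervals, thick lines are medians, and dotted lines mark 1.5-fold. The purple points lie between -1.22 and -0.53, below nearly all green points, and Cox7b2, with 1 and 16 UMIs, is not drawn.

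The 82 nuclear subunits lay close to the median gene. Their median relative log2 ratio was -0.18, with quartiles of -0.38 and -0.06. By CPM, 59 were higher and 23 lower in PD1 KO, with a median log2 ratio of 0.15, so their direction depends on the scaling. Of all genes tested with UMIs in both sections, 9781 were higher by CPM and 1671 lower. Among those with at least 100 CPM in both sections, 762 were higher and 306 lower. Relative to the median gene, 68 nuclear subunits lay below it and 14 above. Of the 1068 genes with at least 100 CPM in both sections, 74.4% lay below it, with the same median of -0.18, so the nuclear subunits did not stand apart from other abundant transcripts. The 48 nuclear subunits with transcripts below 1000 bases had a median of -0.23, and the 503 tested genes of that length -0.22. From 1000 to 2000 bases the medians were -0.16 and -0.11, and from 2000 to 4000 bases -0.08 and 0.001. The part of length and abundance in differences between subunits was not tested. Only 1 subunit lay at least 1.5-fold lower, Atp5d, against 3.3% of all genes tested. Only 1, Cox7b2, lay at least 1.5-fold higher, where 5.5% of all genes tested did. Cox7b2 did not reach the 100 UMIs required of the genes tested, so that share is no match for it. No other subunit lay that far above. Cox7b2, an isoform of the complex IV subunit Cox7b, had 1 UMI in PD1 Het and 16 in PD1 KO, and its relative ratio of 2.79 had an interval from 0.11 to 8.18.

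Complex I subunits had a median of -0.19 over 36 genes. The 7 core subunits, which hold the flavin and the iron-sulphur clusters, had a median of -0.10, and the 29 accessory subunits, which surround and stabilise the core, -0.30. Ndufs1, the largest core subunit and a carrier of iron-sulphur clusters (ENSMUSG00000025968, chromosome 1, 63143596 to 63176833), had 289 CPM in PD1 Het and 520 CPM in PD1 KO. At 0.52 (0.46 to 0.57) it lay above the other 35. Ndufb3, an accessory subunit of the membrane arm, came next at 0.11 with 237 and 321 CPM. The lowest were Ndufa2 at -0.52 with 1188 and 1042 CPM, and Ndufb7 at -0.51 with 820 and 726 CPM, both accessory subunits. The members with the most UMIs, the accessory subunits Ndufv3 and Ndufc1, lay at -0.48 and -0.30.

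All 4 subunits of complex II, the complex with no mt-encoded part, lay at or slightly above the median gene. Of all genes tested 50% lay above it, and 25.6% of those with at least 100 CPM in both sections. Sdha, the flavoprotein that oxidises succinate, had 708 CPM in PD1 Het and 922 CPM in PD1 KO, at a relative ratio of 0.05. Sdhb, the iron-sulphur subunit, lay at 0.02 with 491 and 625 CPM. The membrane anchors Sdhc and Sdhd lay at 0.27 (0.22 to 0.33) and 0.03.

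Complex III had the lowest nuclear median, -0.32 over 8 genes. The 5 small subunits without redox groups lay between -0.42 and -0.14. Of these, Uqcr11 had 2769 CPM in PD1 Het and 2598 CPM in PD1 KO, Uqcrq 2275 and 2194 CPM, and Uqcr10 1915 and 1801 CPM. Uqcrfs1, the Rieske iron-sulphur protein, lay at 0.04 with 862 and 1118 CPM. Uqcrc2, a large structural subunit, also lay at 0.04, while its partner Uqcrc1 lay at -0.38.

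Nuclear complex IV subunits had a median of -0.18 over 17 genes. Cox4i1, the broad form of subunit 4, had 4147 CPM in PD1 Het and 3767 CPM in PD1 KO, at -0.47 (-0.49 to -0.45). Cox6c, the most counted of them, lay at -0.23 with 3973 and 4259 CPM, and Cox7b at 0.05 with 1483 and 1936 CPM. Minor isoforms were scarce. Cox4i2, a form tied to low oxygen, made up 0.437% of the UMIs of Cox4i1 and Cox4i2 in PD1 Het and 0.488% in PD1 KO, and Cox6b2, a form best known from testis, 0.736% and 0.921% of those of Cox6b1 and Cox6b2.

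Within the ATP synthase the nuclear median was -0.14 over 17 genes. The catalytic beta subunit Atp5b had 4032 CPM in PD1 Het and 5016 CPM in PD1 KO and lay at -0.02. Its partner in the head of the enzyme, the alpha subunit Atp5a1, lay at -0.13 with 3434 and 3946 CPM. Atp5d, the delta subunit of the same head (ENSMUSG00000003072, chromosome 10, 80138632 to 80145818), had 1356 and 1136 CPM and lay at -0.59 (-0.61 to -0.56). Atp5o, in the stalk that holds the head still, lay at -0.56 with 2309 and 1976 CPM.

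The rotating c ring is made from 3 genes for an identical mature protein. Atp5g3 had 2206 CPM in PD1 Het and 3397 CPM in PD1 KO, a relative ratio of 0.29 (0.27 to 0.31). Atp5g1 lay at -0.10 with 1881 and 2213 CPM, and Atp5g2 at -0.13 with 446 and 514 CPM. Atp5g3 thus took 48.7% of c ring UMIs in PD1 Het and 55.5% in PD1 KO. The ends of Atp5g2 are shared with other annotated genes, so its counts are uncertain, as are those of Atp5l, Ndufs3, Atp5h and Uqcrb. Atp5o, Ndufs5 and Atp5g1 lay below the limit of 50% but shared 49.7%, 48.9% and 45.6% of their words. The ends of Atp5g3 held no shared 31-base word.

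The 8 complex I assembly factors, which build the complex but are not part of it, were far scarcer, with 301 CPM together in PD1 Het and 366 CPM in PD1 KO. Their median was -0.04, with Ndufaf5 highest at 0.43 (0.26 to 0.60) and Ndufaf2 lowest at -0.39 (-0.55 to -0.23). Cox7a2l lay at -0.45 with 394 and 364 CPM, and Ndufa4l2 at -0.17 with 56.4 and 63.1 CPM.

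Complex by complex, the mt-encoded UMIs per nuclear UMI were lower in PD1 KO in each of the 4 complexes that have both. The ratio was 2.26 and 1.35 in complex I, 2.69 and 1.77 in complex III, 5.32 and 2.91 in complex IV, and 0.800 and 0.521 in complex V. Complex IV thus differed by 1.83-fold and complex III by 1.51-fold. The difference did not lie in a few spots. Per spot, the ratio ran from 0.697 over a median of 2.45 to 5.47 in PD1 Het, and from 0.381 over a median of 1.41 to 3.38 in PD1 KO. The 2 sections overlapped, with 71 of 851 PD1 KO spots (8.34%) above the median PD1 Het spot, and 94 of 811 PD1 Het spots (11.6%) below the median PD1 KO spot.

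Depth differed between the sections and moved with the mt-encoded share inside each of them. Spots with 10000 to 15000 UMIs in PD1 Het had 21.2% mt-encoded UMIs, those with 15000 to 20000 had 26.8%, and those with 20000 to 30000 had 31.04%. In the PD1 KO section the share was 10.2% at 15000 to 20000 UMIs, 14.7% at 20000 to 30000 and 18.0% at 30000 to 50000. Deeper spots had the higher share in both sections. At 15000 to 20000 UMIs the mt-encoded UMIs per nuclear UMI were 2.75 over 329 PD1 Het spots and 1.16 over 68 PD1 KO spots. Over the windows given for each section, the nuclear share was 10.1%, 9.75% and 9.35% in PD1 Het and 8.73%, 10.3% and 10.98% in PD1 KO. In the 52 PD1 Het spots with 500 to 10000 UMIs it was 9.08%. Over single spots, Pearson's r of the nuclear share with log UMIs was positive in both sections, at 0.16 in PD1 Het and 0.44 in PD1 KO. The part of depth in the difference between sections was not tested.

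**Figure D2:**
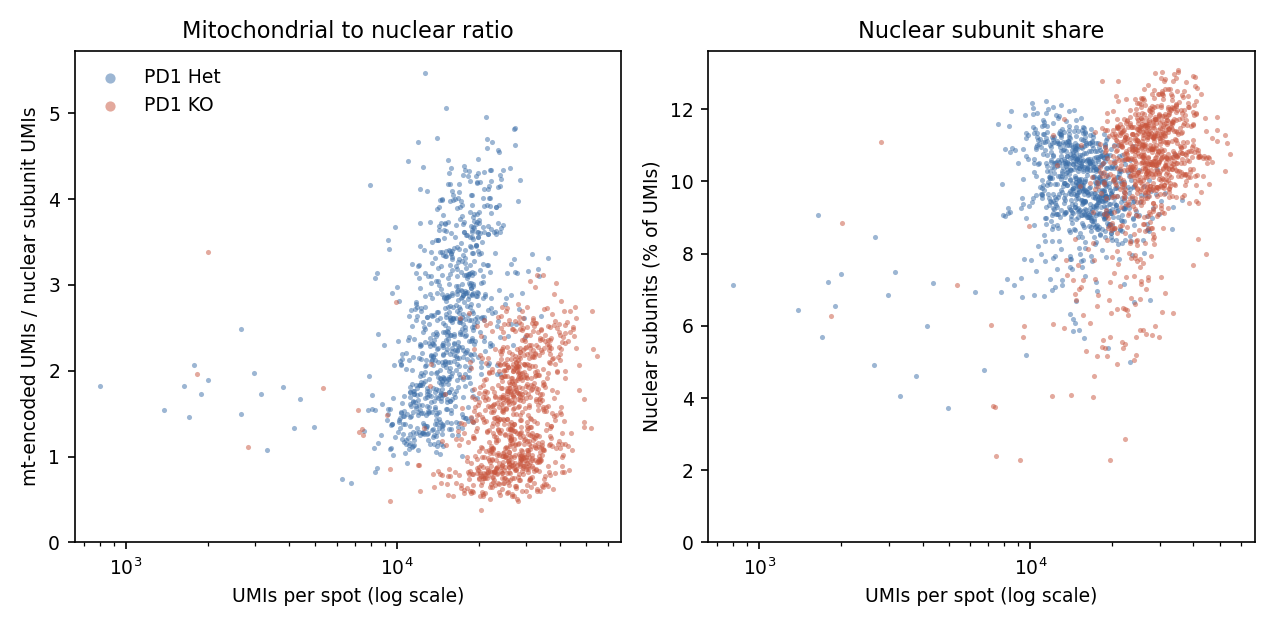
Spots of both sections by UMIs per spot (x axis, log scale), with the mt-encoded UMIs per nuclear subunit UMI (left, y axis) and the nuclear subunit share in percent of UMIs (right, y axis). Each point is 1 spot, blue for PD1 Het and red for PD1 KO. The ratio has a median of 2.45 in PD1 Het and 1.41 in PD1 KO, while the nuclear shares of both sections mostly overlap.

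The 21 genes that act on mitochondrial DNA and its RNA had a median of 0.12. Of these, 13 lay above the median gene, as 50% of all genes tested did, 3 at least 1.5-fold above it, against 5.5%, and 0 as far below, against 3.3%. Pnpt1, a mitochondrial RNA-degrading enzyme, had 73 UMIs in PD1 Het and 384 in PD1 KO, at 1.19 (0.82 to 1.57). Fastkd1, an RNA-binding protein of mitochondria, had 61 and 294 UMIs, at 1.06. Lrpprc and Slirp, partners that protect mitochondrial messenger RNA, lay at 0.19 and 0.01. The 12 transcriptional regulators of respiratory genes had a median of 0.07, with Esrrg at 0.87 on 74 and 313 UMIs, Esrra at -0.07, and Esrrb at -0.58 on 87 and 134 UMIs.

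Neighbouring mitochondrial pathways had medians between -0.19 and 0.20, where genes with at least 100 CPM in both sections had -0.18. The 17 enzymes of the tricarboxylic acid cycle and pyruvate oxidation had a median of 0.20, with citrate synthase Cs at 0.34, malate dehydrogenase Mdh2 at 0.24 and Idh2 at -0.10. Of the 17, 12 lay above the median gene, against 50% of all genes tested and 25.6% of those with at least 100 CPM. The 16 electron carriers and nucleotide exchangers had a median of -0.09. They ran from Etfb at -0.43 to Etfdh, which feeds electrons from fat oxidation into ubiquinone, at 0.69. Slc25a4, the ATP and ADP exchanger of muscle, lay at -0.17. The 15 fatty acid oxidation genes lay at a median of 0.06, and 78 mitochondrial ribosomal proteins one of -0.19. Of 41 listed assembly and insertion factors outside the name rule, 40 were measured, with a median of -0.08. Among these, Acad9, which assembles complex I, lay at 0.78 on 157 and 621 UMIs, and Cox17, the copper chaperone of complex IV, at -0.12. The 12 measured stress and chaperone genes had a median of -0.12, with Hspd1 at 0.03 and Ddit3 at -0.58 on 400 and 618 UMIs. Cytosolic ribosomal proteins were lower, at a median of -0.44 over 90.

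Spots of each section were ranked by their share of UMIs from 18 matrix genes, such as Col1a1, Postn and Fn1, and divided into 5 bins of equal size. Spot positions were not used, so the bins do not give distance to the scar. The matrix genes made up 0.324% of UMIs in the lowest bin and 1.56% in the highest in PD1 Het, and 0.442% and 2.43% in PD1 KO. In the PD1 Het section the nuclear subunits took 10.4%, 10.2%, 9.93%, 9.55% and 8.499% of UMIs from the lowest to the highest bin. In the PD1 KO section they took 11.6%, 11.1%, 10.9%, 10.3% and 8.05%. Each step towards more matrix thus came with a lower share, and the largest step was the last.

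The mt-encoded share followed another course. It was 27.3%, 26.4%, 26.8%, 26.8% and 20.3% in PD1 Het and 16.7%, 17.0%, 17.1%, 15.3% and 12.2% in PD1 KO. It was thus nearly level over the first 4 bins of the PD1 Het section and the first 3 of the PD1 KO section, and lower in the highest bin of both. In every bin the PD1 KO section had the lower mt-encoded share, and the mt-encoded UMIs per nuclear UMI ran from 2.39 to 2.80 over the PD1 Het bins and from 1.45 to 1.58 over the PD1 KO bins, with no overlap.

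As the log2 ratio of the highest over the lowest bin, the nuclear subunits together had -0.29 (-0.30 to -0.29) in PD1 Het and -0.52 (-0.53 to -0.52) in PD1 KO. The mt-encoded genes had -0.43 in PD1 Het and -0.45 in PD1 KO. Of 81 nuclear subunits, 78 were lower in the highest bin of the PD1 Het section, where 26.5% of 8605 genes were, and 79 in PD1 KO, where 28.9% were. None of the 81 was at least 1.5-fold lower in PD1 Het, against 1.74% of genes, and 15 were in PD1 KO, against 2.87%. None was at least 1.5-fold higher in the highest bin, against 24% of genes in PD1 Het and 18.4% in PD1 KO. The 13 mt-encoded genes were lower in the highest bin of both sections, and mt-Nd6 was the 1 gene of them with at least 1.5-fold, with 399 and 396 UMIs.

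The complexes differed little from each other along this axis. Their nuclear log2 ratios lay between -0.26 for complex I and -0.32 for complexes III and IV in PD1 Het, and between -0.49 for complex I and -0.55 for complex IV in PD1 KO. Assembly factors differed less than the subunits, at -0.03 (-0.18 to 0.12) and -0.13 (-0.23 to -0.03). In PD1 Het 4 of the 8 were lower in the highest bin, where 26.5% of genes were, and in PD1 KO all 8, where 28.9% were. Mitochondrial ribosomal proteins lay at -0.09 and -0.22. Cytosolic ribosomal proteins lay at 0.30 and 0.24, close to the median of the 8605 genes, which was 0.26 in PD1 Het and 0.20 in PD1 KO. Tricarboxylic acid cycle genes at -0.34 and -0.56 and fatty acid oxidation genes at -0.42 and -0.69 were lower in matrix-rich spots.

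Markers of several cell types moved along the same axis. Of 8605 genes, 73.5% were higher in the highest bin of the PD1 Het section and 71.1% in PD1 KO. The ventricular cardiomyocyte markers took 8.71% of UMIs in the lowest bin and 6.89% in the highest in PD1 Het, and 8.79% and 6.36% in PD1 KO, or -0.34 and -0.47 on the log2 scale. Nuclear subunit UMIs per cardiomyocyte marker UMI stayed between 1.18 and 1.23 over the PD1 Het bins and between 1.27 and 1.31 over the PD1 KO bins, so the 2 differed between bins by similar amounts. All 8 fibroblast markers were higher in the highest bin of both sections, and their summed share ran from 0.108% to 0.352% and from 0.120% to 0.358%. The 8 endothelial markers together were lower in the highest bin, at -0.23 in PD1 Het and -0.48 in PD1 KO on the log2 scale, with 5 and 6 of the 8 lower. The 4 smooth muscle markers were higher in both, at 0.93 and 0.96 together but with medians over the 4 of 3.03 and 2.20. Their sum was mostly Acta2, with 4916 of 5607 UMIs in PD1 Het and 9446 of 11514 in PD1 KO, which lay at 0.60 and 0.54. All 8 macrophage markers were higher too, from 0.0185% to 0.0497% and from 0.0184% to 0.0907%. Red blood cell genes went opposite ways, from 0.4998% to 1.01% in PD1 Het and from 1.001% to 0.510% in PD1 KO. Their part in the subunit values was not tested.

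**Figure D3:**
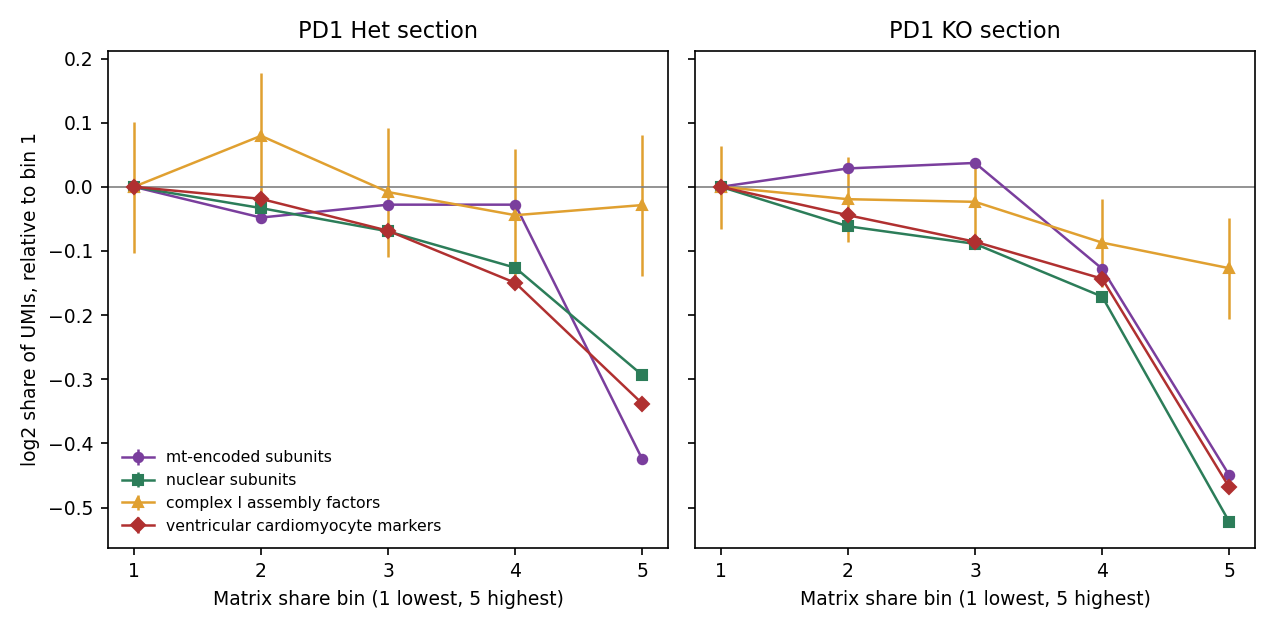
Share of UMIs on a log2 scale relative to the lowest bin (y axis) over the 5 matrix share bins (x axis), for the PD1 Het section (left) and the PD1 KO section (right). Lines join the summed share of mt-encoded subunits, nuclear subunits, complex I assembly factors and ventricular cardiomyocyte markers, with 95% counting intervals as bars. Nuclear subunits reach -0.29 and -0.52 in the highest bin, close to the cardiomyocyte markers at -0.34 and -0.47. Assembly factors reach -0.03 and -0.13.

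Over single spots the nuclear subunits were tied more closely to the cardiomyocyte markers than to the mt-encoded genes. With each sum taken over the UMIs of other genes, Pearson's r between nuclear subunits and cardiomyocyte markers was 0.90 over 811 PD1 Het spots and 0.90 over 851 PD1 KO spots. Between mt-encoded and nuclear subunits it was 0.64 and 0.59, and between mt-encoded genes and cardiomyocyte markers 0.46 and 0.49. Spots of a section share a library and the sums share a denominator, so these values are descriptions. The non-member genes whose share over the 10 bins was most like that of the nuclear subunits, out of 8501, were Cyc1 (r of 0.998), Ckm, Sod2, Ckmt2 and Micos10 (r of 0.996 for the last). Cyc1 encodes cytochrome c1 of complex III, whose symbol the name rule does not match, and it had 865 CPM in PD1 Het and 1105 CPM in PD1 KO, a relative ratio of 0.02.

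Several small subunits of complex IV exist in a heart and muscle form and a broadly expressed form, as Cox6a2 and Cox6a1, Cox7a1 and Cox7a2, and Cox8b and Cox8a. By the mean log2 ratio of the highest over the lowest bin in the 2 sections, the steepest nuclear subunits were Cox6a2, Ndufa4, a complex IV subunit despite its name, and Cox8b, and the flattest or opposite ones were Cox8a, Cox6a1 and Cox4i2. Within single sections the order differed, and Uqcrc2 was the steepest nuclear subunit in PD1 KO at -0.72. Subunits of other complexes were also near level in PD1 Het, such as Ndufa11, an accessory subunit of complex I, at 680 CPM in the lowest and 679 CPM in the highest bin, against 718 and 579 CPM in PD1 KO. Cox6a2 (chromosome 7, 128205435 to 128206387) had 2564 CPM in the lowest and 1878 CPM in the highest bin of the PD1 Het section, and 3013 and 1829 CPM in PD1 KO. Cox8b (chromosome 7, 140898945 to 140900446) had 1652 and 1284 CPM in PD1 Het, and 1600 and 974 CPM in PD1 KO. Both muscle forms were lower in matrix-rich spots of both sections.

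Cox8a (chromosome 19, 7215153 to 7217616) did not follow them. It had 682 CPM in the lowest and 770 CPM in the highest bin of the PD1 Het section, and 846 and 871 CPM in PD1 KO, log2 ratios of 0.17 (0.08 to 0.27) and 0.04 (-0.02 to 0.11). Cox6a1 (chromosome 5, 115345642 to 115348981) was near level as well, with 428 and 463 CPM in PD1 Het and 488 and 503 CPM in PD1 KO. Both genes lay below the median of the 8605 genes, which was 0.26 in PD1 Het and 0.20 in PD1 KO. Cox4i2, with 233 and 434 UMIs, had ratios of 0.03 and -0.28 with intervals that span 0 in both sections. Ndufa4 lay at -0.47 and -0.69, whereas its paralogue Ndufa4l2, which is induced by low oxygen, lay at 0.19 (-0.17 to 0.55) and 0.44 (0.19 to 0.68).

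As a share of each pair, the broad form was higher in the highest than in the lowest bin in all 3 pairs and both sections, although single steps between the lower bins also went the other way. Cox8a took 29.2%, 29.8%, 29.7%, 31.2% and 37.5% of Cox8 UMIs from the lowest to the highest bin of the PD1 Het section, and 34.6%, 36.9%, 37.4%, 39.8% and 47.2% in PD1 KO. Cox6a1 took 14.3%, 14.7%, 15.6%, 16.0% and 19.8% in PD1 Het and 13.9%, 13.9%, 15.5%, 16.5% and 21.6% in PD1 KO. Cox7a2 took 52.4%, 53.4%, 52.7%, 53.5% and 55.5%, and 53.8%, 53.4%, 54.7%, 56.2% and 57.7%, the smallest difference in percentage points of the 3 pairs between the end bins. The 95% binomial (Clopper-Pearson) intervals of the lowest and the highest bin did not overlap in any of the 3 pairs. These intervals cover counting error and not the spread between spots. For the scarce isoforms Cox4i2, beside Cox4i1, and Cox6b2, beside Cox6b1, the intervals of the end bins overlapped in both sections. Of the c ring genes, Atp5g3 took 48.8% in the lowest and 48.4% in the highest bin of the PD1 Het section, and 55.1% and 55.2% in PD1 KO. The share of Atp5g1 was 41.8% and 40.8% in PD1 Het and 36.8% and 35.2% in PD1 KO, and that of Atp5g2, whose counts are uncertain, 9.42% and 10.9%, and 8.05% and 9.57%.

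Between the sections only the Cox8 pair differed widely. Cox8a took 31.2% (30.6 to 31.7) of the pair in PD1 Het and 38.4% (38.0 to 38.8) in PD1 KO, and the PD1 KO section had the higher share in each of the 5 bins. Cox8b stood at 1563 and 1401 CPM, at a relative ratio of -0.49, and Cox8a at 707 and 874 CPM, at -0.03. Cox6a1 took 15.8% and 15.7% of its pair, and Cox7a2 53.4% and 54.9%. The ends of Cox8a, Cox8b, Cox6a2 and Cox7a1 held no 31-base word shared with another annotated gene. In Cox6a1 20.3% of these words were shared, and in Cox7a2 2.70%.

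**Figure D4:**
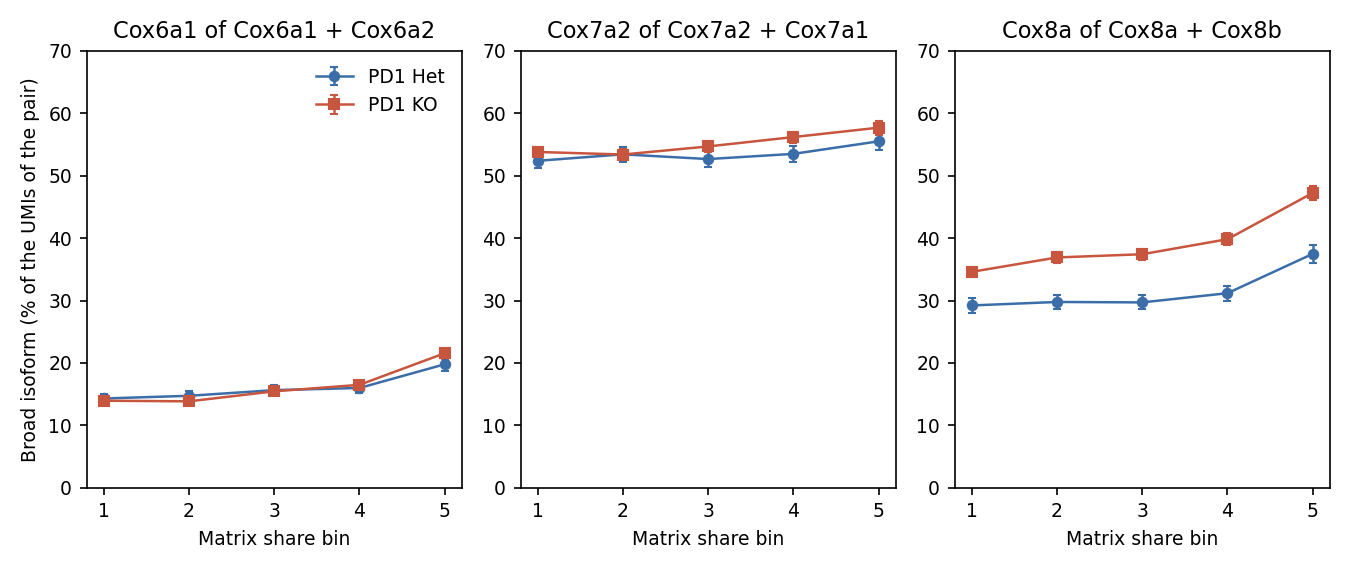
Broad isoform as percent of the UMIs of its pair (y axis) over the 5 matrix share bins (x axis) for Cox6a1 with Cox6a2, Cox7a2 with Cox7a1 and Cox8a with Cox8b. Blue circles are the PD1 Het section, red squares the PD1 KO section, and bars 95% binomial intervals. Each line is highest in the highest bin, and the Cox8a share of the PD1 KO section, from 34.6% to 47.2%, lies above that of the PD1 Het section, from 29.2% to 37.5%, in every bin.

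The 250 bases before the RefSeq start (GRCm38.p6) are shown for the broad forms Cox6a1 and Cox8a, which were near level over the bins, and the muscle form Cox8b, which was not. Capitals mark matches, on either strand, to the letters GCGCNTGC, a shortened core of the site of NRF1, a regulator of respiratory genes, CCGGAAG of ETS factors such as GABPA, or the E-box CAGCTG bound by muscle factors.
Cox6a1, chr5:115348959-115349208, minus strand: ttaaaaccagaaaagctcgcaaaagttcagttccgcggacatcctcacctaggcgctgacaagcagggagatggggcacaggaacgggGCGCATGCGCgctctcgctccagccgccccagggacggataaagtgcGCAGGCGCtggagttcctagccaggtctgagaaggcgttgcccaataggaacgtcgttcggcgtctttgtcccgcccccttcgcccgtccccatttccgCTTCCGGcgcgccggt
Cox8a, chr19:7217617-7217866, minus strand: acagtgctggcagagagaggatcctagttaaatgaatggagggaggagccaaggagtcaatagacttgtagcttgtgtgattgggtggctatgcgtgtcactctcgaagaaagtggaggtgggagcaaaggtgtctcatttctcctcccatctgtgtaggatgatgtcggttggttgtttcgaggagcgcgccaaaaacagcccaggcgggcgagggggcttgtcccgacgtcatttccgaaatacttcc
Cox8b, chr7:140900447-140900696, minus strand: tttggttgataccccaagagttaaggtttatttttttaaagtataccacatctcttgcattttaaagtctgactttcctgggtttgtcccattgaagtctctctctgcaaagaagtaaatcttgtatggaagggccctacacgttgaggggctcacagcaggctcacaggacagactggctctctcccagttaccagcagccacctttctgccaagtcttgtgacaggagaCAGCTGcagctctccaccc
The Cox6a1 stretch holds NRF1 letters at 2 places, in the first of them as overlapping matches on both strands, ETS letters at 1, and 26 CpG dinucleotides at 62.8% G and C. Cox8a holds 11 CpG dinucleotides and no match within the bases shown, although ETS letters begin in the last of them and run past the start. Cox8b holds 1 CpG and 1 E-box. Cox7a2 has 14 CpG dinucleotides and 1 match, to the NRF1 letters, and Cox7a1 has 4 and no match. RefSeq starts were matched for 67 of the 82 nuclear subunits, and Cox6a2 was not among them.

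Over the 300 bases from 250 before to 50 after the start, NRF1 letters were present for 27 of these 67 subunits (40.3%), against 21.8% of 9083 genes tested and 10.8% of all 27025 genes with a start in the table. ETS letters were present for 25.4%, against 21.0% and 9.93%. The letters AAGATGGC of YY1 were found for 13.4%, against 5.48% and 3.19%, and AAGGTCA of the oestrogen-related receptors for 11.9%, against 3.69% and 5.38%. CAGCTG was found for 8.96%, against 18.0% and 18.3%, and TATAAA for 11.9%, against 8.90% and 15.7%. A match of letters is a description of the sequence and not a measured binding site.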

How the data were processed

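Gene expression was measured by Visium in 1 heart section of each genotype, grouped by the genotype given in the labels. The deposited files hold unnormalised UMI counts for each gene in each spot, which the authors made, per the file headers, using Space Ranger 1.1.0, with the builds mm10 and GRCm38 per the submitters' processing notes. The aligner settings and the annotation were not given in the sources used here. Positions are from GENCODE vM21 (GRCm38) and start regions from RefSeq (GRCm38.p6).

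Spots with at least 500 UMIs were summed within each section and expressed as CPM. Python 3.11.15 with numpy 2.4.6, scipy 1.17.1 and pandas 2.3.3 was used, and edgeR 4.0.16 only for alternative scaling factors. Intervals are exact Poisson, binomial (Clopper-Pearson) or conditional intervals at 95%, and 3 counts were taken as the limit that a count of 0 allows. The calculations were tested on simulated data. Matrix share is the share of 18 scar matrix genes among UMIs outside mitochondrial genes and the genes described.

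Named genes were all mt-encoded genes, the isoform pairs, in each complex the 2 most counted nuclear subunits, the 2 of highest ratio and the 2 of lowest, those with the 3 steepest and 3 flattest bin ratios, and up to 4 of each other list. Other genes named with them were chosen after their values were seen. The genes and lists were chosen with earlier results of these data known. One listed symbol, Fastkd4, was not matched. Alternatives were other scalings, spot filters, depth windows, matrix lists and bin numbers. Spot positions were not used here, and nothing says whether other sections of these hearts would vary as much.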

Additional observations from a re-analysis of the deposited data

Results flagged for a closer look

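Ndufb1-ps, a gene outside the comparisons because of its -ps suffix, carried a clear signal in both sections. It had 7767 UMIs in PD1 Het and 20242 UMIs in PD1 KO, or 606 and 861 CPM, far above the 3 counts that a count of 0 allows. Its relative log2 ratio was 0.17 (0.14 to 0.21), and its log2 ratio of the highest over the lowest matrix bin was -0.23 in PD1 Het and -0.52 in PD1 KO, within the range of the nuclear subunits in both.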

How the results depend on the processing

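No paired analysis was possible because each group has 1 section. The median log2 ratio of the nuclear subunits, -0.18, turned to 0.15 by CPM without centring and to 0.003 against the median of genes with at least 100 CPM, a reference chosen after seeing the data. It was -0.027 by CPM on UMIs outside mitochondrial genes, -0.23 for summed UMIs, -0.32 in spots with 10000 to 30000 UMIs (753 PD1 Het and 554 PD1 KO spots), -0.11 in the lowest and -0.30 in the highest matrix bin. The mt-encoded median, -1.06, kept its direction in every alternative run, at -0.73, -0.88 and -0.91 under the same 3 scalings, -1.30 in the depth window and -0.98 in the highest bin. The log2 ratio of mt-encoded over nuclear UMIs, -0.80, was -0.92 in the depth window, -0.86 in the lowest bin and -0.65 in the highest.

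For the highest over the lowest matrix bin, alternatives are given in the order share of UMIs outside these genes, matrix share over all UMIs, 10 bins and depth window. The nuclear value of -0.29 in PD1 Het was -0.49, -0.24, -0.42 and -0.26. The value of -0.52 in PD1 KO was -0.68, -0.50, -0.78 and -0.59. The mt-encoded value of -0.43 in PD1 Het was -0.62, -0.68, -0.78 and -0.36, and that of -0.45 in PD1 KO was -0.60, -0.67, -0.70 and -0.39. With 3 collagens as the matrix list, the nuclear PD1 KO value was -0.51 and the mt-encoded values -0.32 and -0.37. As a ratio to the cardiomyocyte markers, the nuclear values were 0.044 and -0.054 and the mt-encoded ones -0.087 and 0.019, so 1 of each pair changed sign. The cause of these shifts was not tested. The other 12 alternatives of these results moved a value by less than its counting interval or spread. Depth limits the scarce members, such as Cox7b2, Cox4i2 and mt-Nd6.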
